A study of Mus musculus with 4 samples.

Results

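Epithelial identity and epithelial-mesenchymal transition (EMT) were followed at 10 genes in a map of NFIC binding in the mouse pancreas. The genes were 3 epithelial genes, *Cdh1*, *Epcam* and *Muc1*, and 7 mesenchymal and EMT genes, *Cdh2*, *Vim*, *Zeb1*, *Zeb2*, *Snai1*, *Snai2* and *Twist1*. They were chosen by name, with earlier results of these data known. Their peaks are the entries of the list that the annotation assigns to them. In all, 7 of the 10 genes had at least 1 peak, beside 37.2% of protein-coding genes, in a list of 15824 peaks assigned to 9086 genes. The comparison asks whether NFIC, a factor that the study examines as a regulator of acinar differentiation, occupies epithelial genes and mesenchymal genes alike.

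NFIC belongs to the nuclear factor I (NFI) transcription factors, which bind as dimers to a palindromic site with an arm on each side of a short spacer. Epithelial cells are held together by E-cadherin at adherens junctions and carry EPCAM and the mucin MUC1 at their surface. In EMT these cells lose junctions and polarity, and gain N-cadherin, vimentin and motility. The ZEB, SNAIL and TWIST families of transcription factors drive this change, and ZEB and SNAIL proteins repress the E-cadherin gene through E-boxes in its promoter. The acinar cells that make up most of the pancreas are epithelial, while mesenchymal genes are mainly expressed by its stromal cells.

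Chromatin of wild-type mouse pancreas was immunoprecipitated with an anti-NFIC antibody from Bethyl in 3 libraries, beside 1 library of input DNA. All libraries carry the strain label "Mixed", and the deposited description gives an age of 8 to 12 weeks. The text of the study gives a narrower range of ages, which also begins at 8 weeks. The authors deposited a single merged peak list on build mm10, so no value has an error between replicates, input values were not analysed here, and it is unknown how deeply each library was sequenced. The tissue was taken whole, so a peak cannot be assigned to a cell type, and binding in few cells cannot be told apart from weak binding in many. The peak score is the authors' own score, on a scale that the sources used here do not name, and it is used only to rank peaks. Its median was 6.57 over all peaks, with a range of 3.39 to 68.1. Among marker genes of cell types, 11 of 12 acinar genes had a peak, where 37.2% of protein-coding genes had one. So did 3 of 6 ductal, 1 of 8 stromal, 0 of 5 immune and 0 of 6 endocrine marker genes. The acinar list includes genes that the study itself reports as bound by NFIC, so its count is not an independent check of the tissue. The keratin genes *Krt7* and *Krt19*, which ductal cells also express, were counted with the other epithelial genes and had peaks.

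The sequences of 6 of the member peaks are shown because they hold the motif matches, or the lack of them, to which the results below refer. Each is the 200 bp window centred on the peak, on the plus strand of mm10. Capitals mark NFI full sites in the windows of *Epcam*, *Vim*, *Snai2* and the downstream *Muc1* peak. A full site is TGGC and GCCA separated by 5 bases, with at most 1 mismatch over these 8 fixed bases. In the upstream *Muc1* window capitals mark a single NFI arm, TTGGCA on either strand, and in the *Cdh1* window they mark 2 E-boxes of the sequence CAGCTG.
Cdh1 intron, chr8:106620609-106620808: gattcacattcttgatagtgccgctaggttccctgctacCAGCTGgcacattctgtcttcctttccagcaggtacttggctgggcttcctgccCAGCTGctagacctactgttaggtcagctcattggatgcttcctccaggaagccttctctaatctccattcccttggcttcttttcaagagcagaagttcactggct
Epcam intron, chr17:87636215-87636414: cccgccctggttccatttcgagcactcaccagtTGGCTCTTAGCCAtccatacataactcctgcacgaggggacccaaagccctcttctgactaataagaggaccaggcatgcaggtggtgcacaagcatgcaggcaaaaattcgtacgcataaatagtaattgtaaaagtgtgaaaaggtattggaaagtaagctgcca
Muc1 upstream, chr3:89228227-89228426: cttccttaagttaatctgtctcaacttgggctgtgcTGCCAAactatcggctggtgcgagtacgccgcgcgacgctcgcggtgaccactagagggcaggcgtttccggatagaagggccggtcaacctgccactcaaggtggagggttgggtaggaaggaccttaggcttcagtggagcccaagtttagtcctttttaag
Muc1 downstream, chr3:89233687-89233886: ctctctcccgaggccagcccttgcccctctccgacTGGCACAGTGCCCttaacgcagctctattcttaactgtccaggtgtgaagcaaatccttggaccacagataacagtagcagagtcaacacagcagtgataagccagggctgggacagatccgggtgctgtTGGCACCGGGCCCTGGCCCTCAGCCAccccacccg
Vim promoter, chr2:13573863-13574062: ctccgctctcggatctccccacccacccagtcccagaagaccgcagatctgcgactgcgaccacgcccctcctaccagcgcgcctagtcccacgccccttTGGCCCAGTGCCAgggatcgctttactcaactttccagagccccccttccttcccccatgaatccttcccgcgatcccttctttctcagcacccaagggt
Snai2 promoter, chr16:14705282-14705481: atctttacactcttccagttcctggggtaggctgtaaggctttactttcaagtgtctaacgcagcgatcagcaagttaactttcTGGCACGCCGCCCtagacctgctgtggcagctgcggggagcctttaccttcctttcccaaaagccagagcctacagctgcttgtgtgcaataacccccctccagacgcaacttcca

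All 3 epithelial genes and 4 of the 7 mesenchymal and EMT genes had an assigned peak, beside 37.2% of 21000 protein-coding genes. Each group had 5 peaks. The 5 epithelial peaks had a median score of 8.96 (range 3.59 to 33.7), and 4 of them were at or above the median of all peaks. The 5 mesenchymal and EMT peaks had a median score of 5.38 (range 4.78 to 12.0), and 1 of them, at *Vim*, was at or above it. Of all peaks, 51.6% were at or above this median. The ranges of the groups overlap, because the lowest of the 10 scores belongs to *Epcam* and the third highest to *Vim*. With 5 peaks a group from 1 merged list, the difference was described and not tested.

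**Figure D1:**
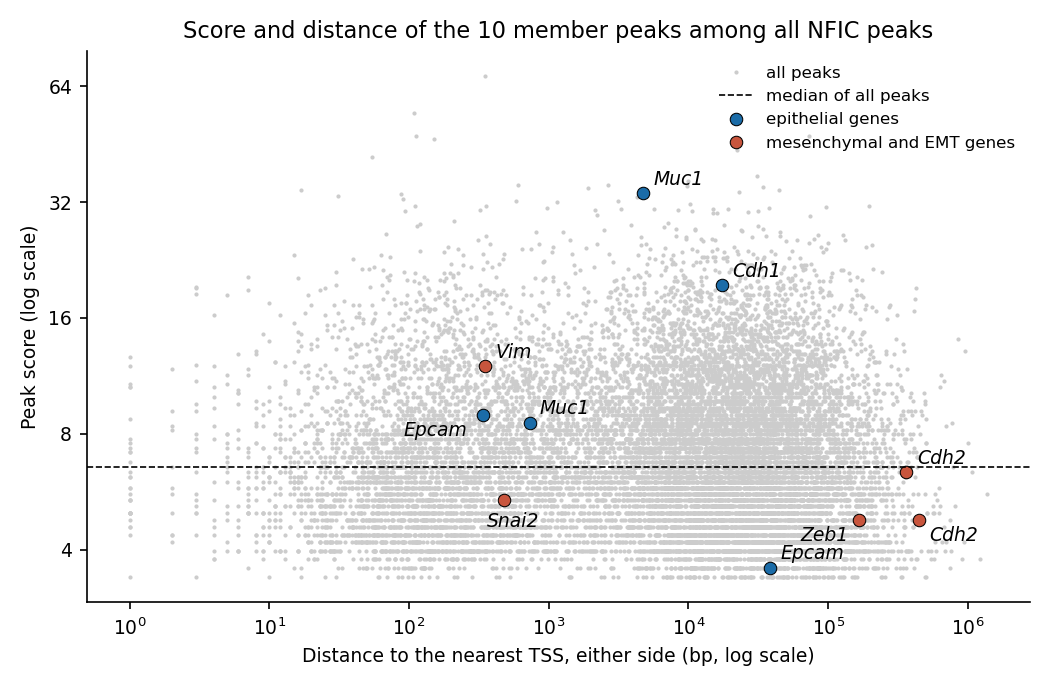
Score of each peak (log scale) against its distance to the nearest transcription start site on either side (bp, log scale), with all 15824 peaks in grey, peaks of epithelial genes in blue and peaks of mesenchymal and EMT genes in red. The 2 highest member peaks, at *Muc1* (33.7) and *Cdh1* (19.5), are epithelial, and the *Cdh2* and *Zeb1* peaks lie at the far right, under the dashed median of 6.57.

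The highest peak of all members was at *Muc1*, which codes for a transmembrane mucin of the apical surface. This peak, at chr3:89233701-89233873, had a score of 33.7 and ranked 18 of 15824. Its centre lay 4731 bp downstream of the *Muc1* transcription start site (TSS) and 406 bp beyond the end of the gene. The peak falls in the gap between the ends of *Muc1* and *Trim46*, which are transcribed towards each other, at 319 bp from *Muc1* and 295 bp from *Trim46*. The authors' annotation accordingly classes it as a transcription termination site, of a *Trim46* transcript. Among the 289 peaks of that class it had the highest score, where the median was 7.17. Its window held 3 NFI full sites, TGGCACAGTGCCC and TGGCACCGGGCCC with 1 mismatch each and TGGCCCTCAGCCA with none. The last of these runs past the edge of the deposited interval. A CAGGTG E-box, a GATAAG motif and a TTGGCA arm, which overlaps the second full site, were also present.

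The other *Muc1* peak, at chr3:89228241-89228413, lay in the promoter at -729 bp and had a score of 8.56, higher than 70.2% of all peaks. It held no full site and a single TTGGCA arm. A search for the core of the CTCF consensus, made after this window was seen, found it at -10 bp from the peak centre. The CTCF core was in 2.22% of all peaks, in 1.28% of promoter peaks and in no other member peak. The 2 *Muc1* peaks were 5460 bp apart, in a gene of 4.3 kb. *Muc1* also lay in the most crowded of the member loci, with 8 peaks within 100 kb of its TSS, a number exceeding that of 94.0% of protein-coding genes. The other 6 of these peaks were assigned to *Pklr*, *Clk2*, *Slc50a1*, *Efna1* and *Efna3*, with scores of 4.18 to 12.7.

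*Cdh1*, which codes for E-cadherin, had 1 peak, at chr8:106620623-106620795 in intron 2 of 15 and 17359 bp from the TSS. Its score of 19.5 was higher than that of 98.0% of all peaks. The peak overlaps a repeat of the L2b family of LINE elements. Its window held no full site and no TTGGCA, the only form of a single arm searched for, which 33.6% of all peaks held. TGGC alone, as in an arm of a full site, did occur in the window. It also held 2 CAGCTG E-boxes, the form bound by the acinar PTF1 complex, at -58 and -4 bp from the peak centre. No peak lay in the *Cdh1* promoter. A pair of peaks upstream of the gene, at -28494 bp (score 8.56) and -40894 bp (score 4.78), was assigned to the non-coding gene *1110028F18Rik*, whose TSS is nearer. By the nearest protein-coding TSS these would count for *Cdh1*, giving it 3 peaks within 100 kb. Of protein-coding genes, 57.8% had fewer peaks within that distance.

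*Epcam*, which codes for an epithelial adhesion molecule, had a peak in intron 1 of 9, at chr17:87636229-87636401 and 336 bp from the TSS. It had a score of 8.96, higher than 73.2% of all peaks, and is annotated in a B3 repeat of the SINE elements. Its window held the exact full site TGGCTCTTAGCCA, at -61 bp from its centre, together with a CAGGTG E-box. The other *Epcam* peak, at chr17:87597557-87597729, lay -38336 bp upstream between genes, in an endogenous retroviral repeat. This peak had the lowest score of all member peaks, 3.59, which exceeded 0.822% of all peaks, and a focus ratio of 0.512 beside a median of 0.684. The focus ratio, deposited as a fraction, describes how the tags of a peak are placed about its centre. No motif searched for was found in that window. Repeats were annotated at 3 of the 5 epithelial peaks and 1 of the 5 mesenchymal and EMT peaks, beside 10.5% of all peaks, and their part in the scores was not tested.

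**Figure D2:**
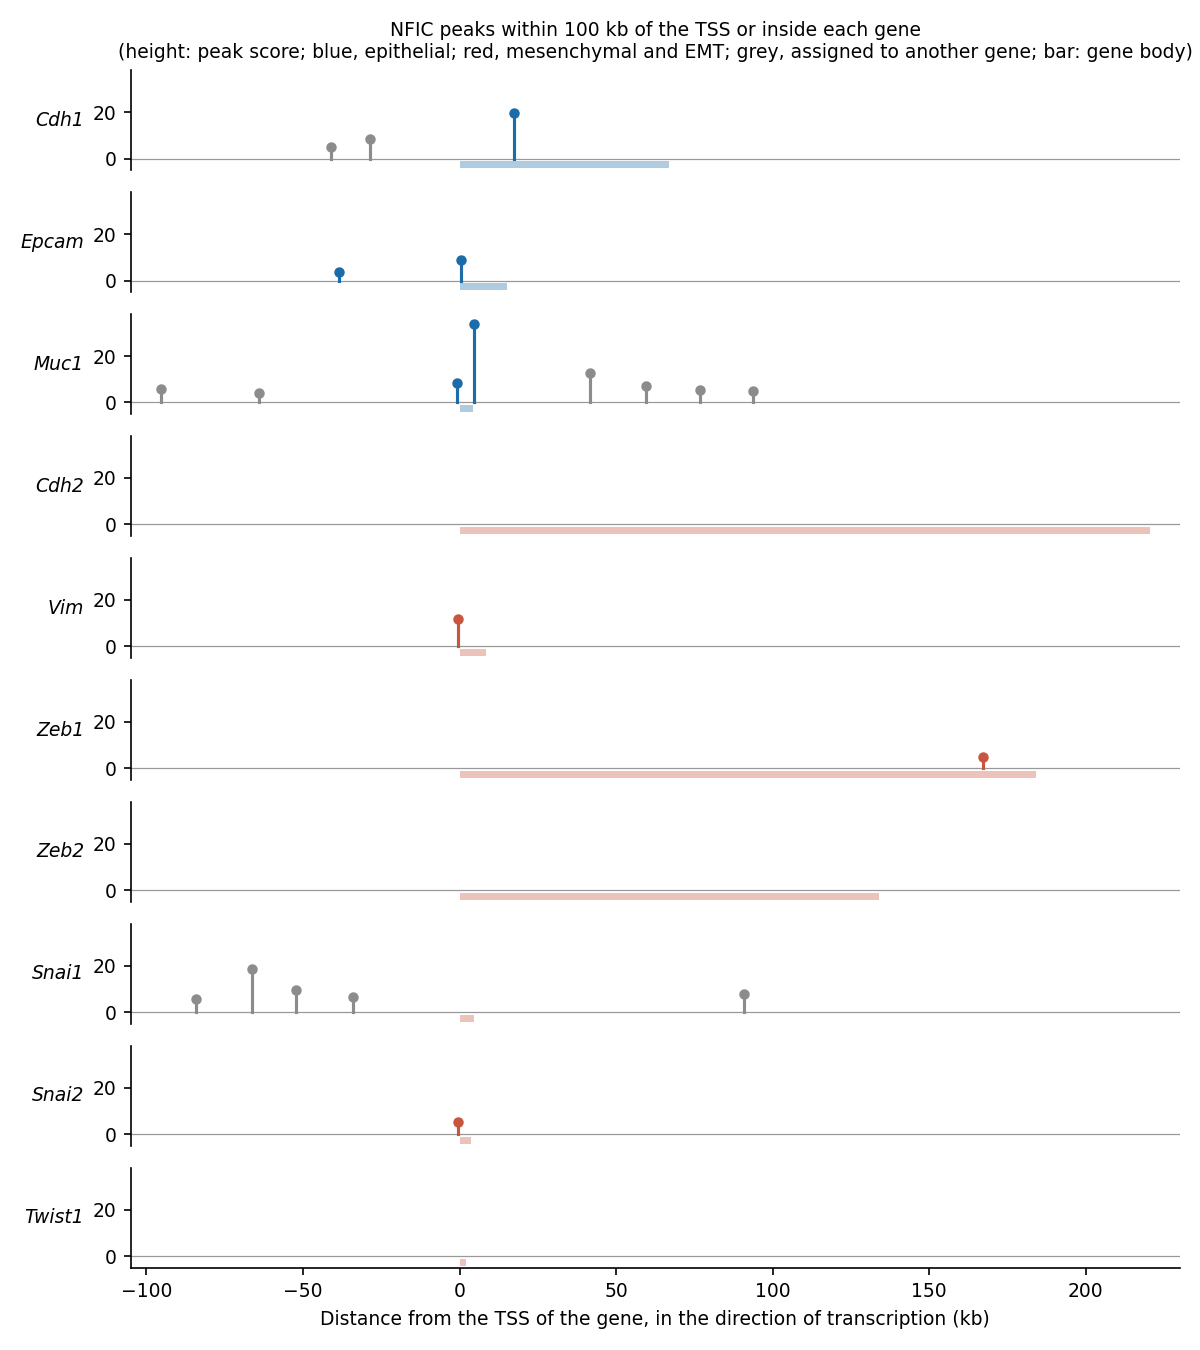
Peaks within 100 kb of the TSS or inside each gene, by distance from its TSS in the direction of transcription (kb), with the height of each stem giving the peak score and the bar under the line the gene body. Coloured stems are peaks assigned to the gene itself (blue, epithelial, and red, mesenchymal and EMT) and grey stems peaks assigned to a neighbour. The *Cdh2*, *Zeb2* and *Twist1* rows are empty, and the 5 peaks around *Snai1* all belong to its neighbours.

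Among the mesenchymal genes the highest score was at *Vim*, which codes for the intermediate filament protein vimentin. Its only peak, at chr2:13573877-13574049, lay in the promoter at -348 bp and had a score of 12.0, higher than 87.2% of all peaks. The exact full site TGGCCCAGTGCCA lay 6 bp from the peak centre. Of 3270 promoter peaks, 4.83% held an exact full site, and the window of *Vim* was rich in G and C (63.0%, beside a median of 65% for promoter peaks). No other peak was found within 174791 bp, where the next one is assigned to *Cubn*.

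*Snai2*, which codes for the EMT transcription factor SLUG, also had a promoter peak, at -477 bp and chr16:14705296-14705468. Its score of 5.38 exceeded 29.9% of all peaks. The window held the full site TGGCACGCCGCCC with 1 mismatch, at -10 bp from the centre, which overlaps a GGGCGG box on the other strand, and 2 CAGCTG E-boxes. Like *Vim*, *Snai2* stood alone, with the next peak 327780 bp away at *Abcc1*. *Muc1*, *Vim* and *Snai2* were thus the members with a peak from -1000 bp to the TSS, 1 of 3 epithelial and 2 of 7 mesenchymal and EMT genes, where 10.7% of protein-coding genes had one. A window from -1000 to 1000 bp would add *Epcam*, and the share of protein-coding genes was then 18.1%.

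The remaining peaks of this group had scores below the median of all peaks and lay far from a TSS. *Zeb1*, which codes for a repressor of E-cadherin, had 1 peak, at chr18:5758492-5758664 in intron 3 of 7 and 165931 bp from the TSS by the authors' annotation, with a score of 4.78. That score exceeded 20.2% of all peaks, and the window held a full site with 1 mismatch and 2 CAGGTG E-boxes, the sequence that ZEB and SNAIL proteins themselves bind. *Cdh2*, which codes for N-cadherin, had 2 intergenic peaks, at 362170 bp (chr18:16446990-16447162) and 448397 bp (chr18:16360763-16360935), with scores of 6.37 and 4.78. These lay 141.8 and 228.0 kb beyond the end of the gene, and the nearer of them held a full site with 1 mismatch. In the whole list 161 peaks, or 1.02%, were assigned over a distance of more than 300 kb. There was no peak inside *Cdh2* or within 100 kb of its TSS.

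The genes of 3 EMT transcription factors had no assigned peak. *Zeb2* had none within 190334 bp of its TSS, where the closest peak (score 9.76) belongs to *Gtdc1*, and for *Twist1* the closest peak (score 4.78), assigned to *Twistnb*, lay at -527917 bp. Of protein-coding genes, 28.3% had no peak within 100 kb of the TSS. *Snai1*, the gene of SNAIL, lay in a different setting. It had 5 peaks within 100 kb, a number exceeding that of 78.5% of protein-coding genes. Of these peaks, 3 were assigned to *Rnf114* and 1 each to *Slc9a8* and *Ube2v1*, and the closest was at -33887 bp (score 6.37). The highest of them, with a score of 18.7 and an exact full site, lay at -66357 bp in an intron of *Slc9a8*. In a list of called peaks the lack of a peak means only that none passed the threshold of the authors, which is not given in the sources used here.

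The genes differ in the room that nearest-TSS assignment gives them. The region nearest to the TSS measured 8.9 kb for *Muc1*, 29.5 kb for *Epcam* and 48.0 kb for *Cdh1*, and between 64.3 kb (*Snai1*) and 528.1 kb (*Cdh2*) for the mesenchymal and EMT genes, with no overlap between the groups. The density of peaks was 22.5 per 100 kb for *Muc1*, 6.78 for *Epcam* and 2.08 for *Cdh1*. It did not exceed 0.804 (*Vim*) in any mesenchymal or EMT gene. With at most 2 peaks in any member, these densities depend largely on the length of the region. Because the lengths do not overlap between the groups, the densities cannot show a difference in binding between them. All peaks with an assigned gene had a density of 0.58 per 100 kb over the whole length of the chromosomes. That value is not one of a typical gene, because each peak weighs more in a small region. The density of *Muc1* rests on 2 peaks in 8.9 kb. The share of genes with a peak was 22% in the decile with the smallest regions, 49.5% in the ninth decile and 45.1% in the last. The shares of the deciles in which the members lie averaged 31.3% for the epithelial genes, all of which had a peak, and 46.4% for the mesenchymal and EMT genes, of which 57.1% had one.

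**Figure D3:**
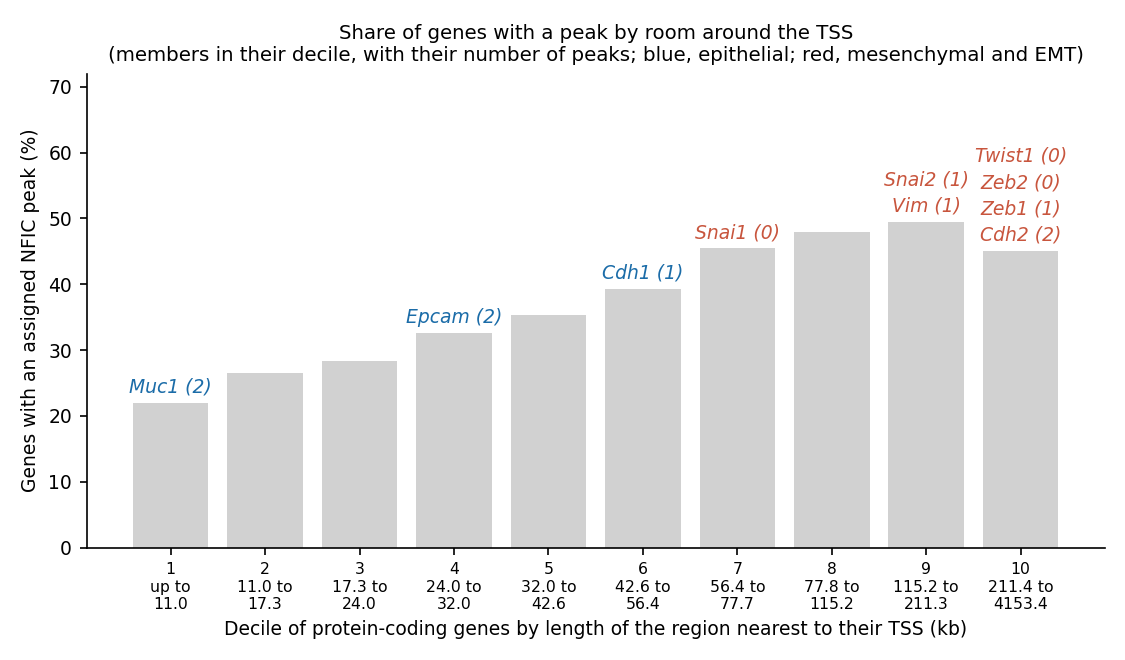
Share of protein-coding genes with an assigned peak (%, grey bars) in deciles of the length of the region nearest to their TSS (kb), with the members written above their decile and their number of peaks in parentheses. The epithelial genes (blue) lie in the deciles 1, 4 and 6, where 22% to 39.3% of genes had a peak, and the mesenchymal and EMT genes (red) in the deciles 7, 9 and 10, where 45.1% to 49.5% had one.

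Full sites did not follow the order of the scores among the members. A full site was found in 6 of the 10 member peaks, 2 of 5 epithelial and 4 of 5 mesenchymal and EMT, beside 51.8% of all peaks. An exact site was found in 2 epithelial peaks (*Epcam* and *Muc1*) and 1 mesenchymal peak (*Vim*), beside 13.4% of all peaks. Full sites were in 59.4% of the peaks at or above the median score and 43.6% of those below it. The peak of *Cdh1*, second in score among the members, was thus without a full site, while the low peaks of *Snai2* and *Zeb1* had one. The single arm TTGGCA was found in 4 member peaks (33.6% of all peaks). CAGGTG E-boxes were found in 4 member peaks (24.1% of all peaks) and CAGCTG E-boxes in 4 (21.4%). GATAAG was found in 1 member peak and 7.75% of all peaks, and GGGCGG in 3 and 21.1%. The NR5A2-type motif CAAGGTCA (2.03% of all peaks), the FOX-type motif TGTTTAC (3.97%) and the AP-1-type motif TGANTCA (5.26%) were in none. All were searched on both strands, and a match of letters does not show that the site is bound.

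**Figure D4:**
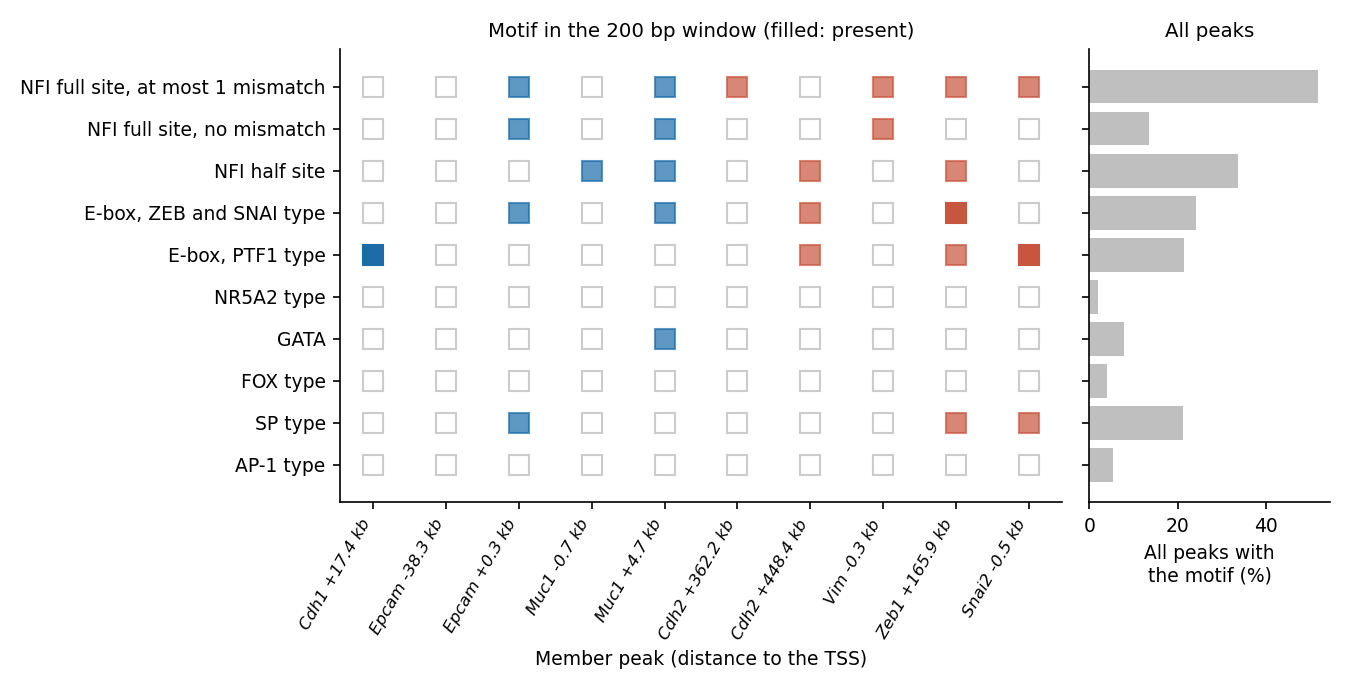
Presence of each motif (rows) in the 200 bp window of each member peak (columns, named by gene and distance to the TSS), where a filled square marks a match and a darker one at least 2 matches (full sites are marked by presence only), beside the share of all peaks with the motif (%, grey bars). Full sites are present in 6 of the 10 windows, and of the motifs shown the *Cdh1* window holds only CAGCTG.

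The other genes of both programmes were counted in the same way. Their lists were drawn up with earlier results of these data known, so the counts are not independent evidence of a difference between them. Of 35 other epithelial genes, 28 (80%) had a peak, beside 37.2% of protein-coding genes. Of 32 other mesenchymal and EMT genes, 12 (37.5%) had one. The deciles of region length in which these genes lie had average shares of 36.2% and 40.4%. The 61 peaks of the epithelial list had a median score of 7.57, and 39 of them were at or above the median of all peaks. The 24 peaks of the mesenchymal list had a median score of 5.18, with 6 at or above that median. Full sites were found in 22 of the 61 epithelial and 12 of the 24 mesenchymal peaks, beside 51.8% of all peaks. None of these differences was tested.

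The highest peaks of the epithelial list were at *Elf3*, which codes for an ETS factor of epithelia, *Llgl2*, a polarity gene, and *Grhl2*, which codes for an activator of E-cadherin. *Elf3* had a peak of score 22.9 at 30982 bp, with an exact full site, and a promoter peak of score 14.9 at -177 bp. *Llgl2* had 4 peaks from 15036 to 35675 bp with scores of 7.37 to 18.7. *Grhl2* had 5 peaks, all upstream, from -48227 to -112361 bp, of which that at -97171 bp had a score of 15.7 and the others 3.39 to 5.58. Promoter peaks were found at 8 of the 35 genes, beside 10.7% of protein-coding genes. They were at *Elf3*, the junction genes *Cldn3* (8.96), *Marveld3* (6.77), *Ctnnd1* (5.38) and *Pkp3* (6.97), the keratin gene *Krt7* (4.58), and *Prss8* (11.0) and *Spint2* (10.4), which code for an epithelial protease and a protease inhibitor. The values in parentheses are scores of the promoter peaks. Like *Muc1*, *Prss8* had its higher peak in the class of transcription termination sites, at 4625 bp with a score of 14.9.

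In the mesenchymal list no peak scored above 8.17. That was the score of a peak at -5863 bp from *Sox4*, followed by *Foxc2* with 7.97 at -2618 bp and *Tagln*, a smooth muscle gene, with 7.37 at -950 bp. Promoter peaks were found at 3 of the 32 genes, near the 10.7% of protein-coding genes, namely *Tagln*, *Sox4* (7.17 at -74 bp) and *Foxq1* (4.98 at -359 bp). Both *Tagln* peaks held an exact full site. The 20 genes without a peak included *Fn1*, *Acta2*, *Pdgfra* and *Pdgfrb*, which were named here after their values were seen. *Pdgfrb* is also among the stromal markers. Of the members, *Vim* alone among the mesenchymal and EMT genes stood above this whole list, with 12.0, and *Muc1* alone among the epithelial genes stood above *Elf3*.

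**Figure D5:**
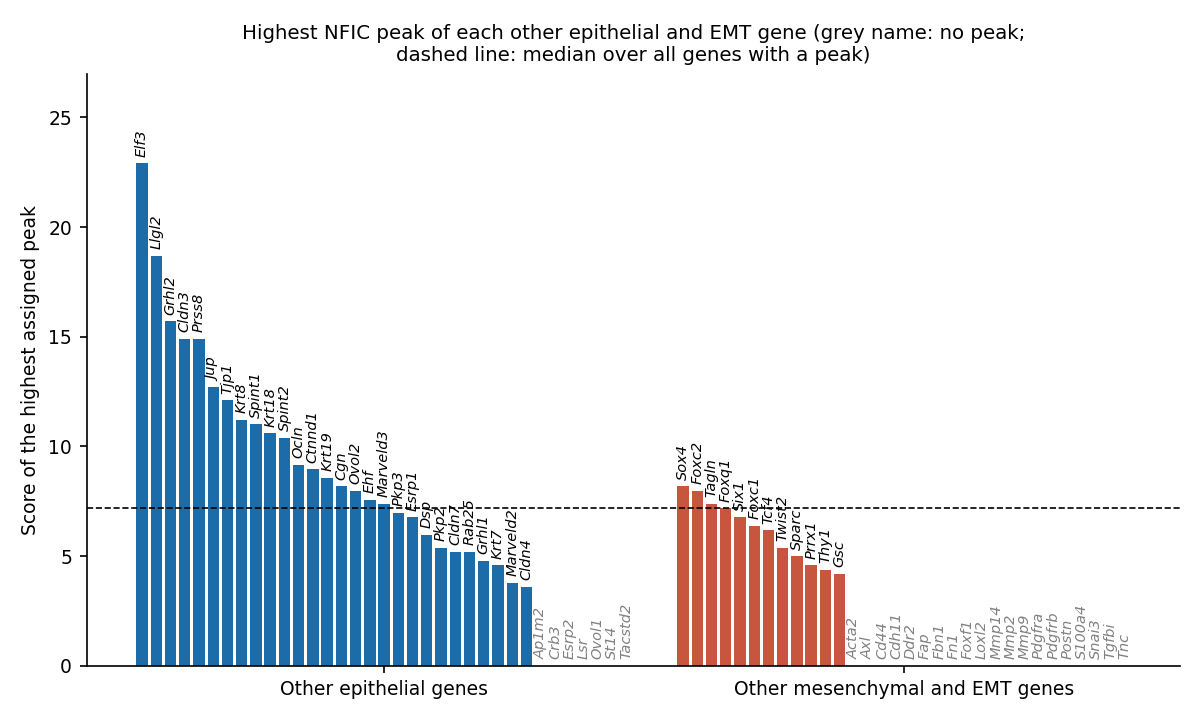
Score of the highest peak assigned to each of 35 other epithelial genes (blue) and 32 other mesenchymal and EMT genes (red), ordered by score, with genes without a peak named in grey and the median over all genes with a peak (7.17) as a dashed line. The epithelial scores reach 22.9 at *Elf3* and the mesenchymal ones 8.17 at *Sox4*.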

How the data were processed

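The authors deposited 1 merged list of peaks, made from 3 NFIC ChIP libraries and 1 input library of mouse pancreas. The submitters' processing notes name BWA, Picard and MACS2 and build mm10. The methods name RUbioSeq+ and HOMER, for alignment, peak calling, merging and annotation, in a paragraph on downloaded data. Thresholds and tool versions are not given in the sources used here. The peak score is the authors' own, on a scale not given in the sources used here, and was used to rank peaks. The deposited focus ratio is a fraction computed from each peak's tags. It holds 0 columns of values for single samples. Replicates therefore could not be compared, the depth is unknown and no test was made.

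Peaks were taken as assigned by the authors, with distances from the peak centre, negative upstream. Genome sequence, gene models and microRNAs were those of RefSeq for GRCm38 (mm10), in a release that may not be the one the authors used. For 15725 peaks annotated to a transcript of that copy, 92.9% of distances were equal within 1 bp. Among the members, *Snai2* (-470 bp) and *Zeb1* (167251 bp) differed. Gene lengths, regions nearest to a TSS and loci of 100 kb on each side were computed from that copy, and the background was its 21000 protein-coding genes, matched by gene number. Motifs were searched as fixed sequences on both strands in 200 bp windows, and 100% of the sites planted in 200 simulated windows were found.

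The genes named are the 10 members, the genes of other lists with a peak from -1000 bp to the TSS or among the 3 highest scores of their list, the genes to which peaks at the members' loci are assigned, and the miR-200 and miR-205 genes. Named outside this rule, after their values were seen, are *Trim46*, which neighbours a *Muc1* peak, *Krt19*, and 4 mesenchymal genes without a peak, *Fn1*, *Acta2*, *Pdgfra* and *Pdgfrb*. The members and lists were chosen with earlier results of these data known. Alternatives kept peaks at or above the median score, the highest or nearest peak of a gene, the nearest protein-coding TSS of RefSeq, peaks in the gene body and 5000 bp upstream, other promoter windows, no mismatch, or the deposited interval of 173 bp. Computations used Python 3.11, numpy 2.4.6, pandas 2.3.3 and matplotlib 3.10.9.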

Additional observations from a re-analysis of the deposited data

How the results depend on the processing

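The counts and medians of members and lists were recomputed in 44 combinations of result and alternative, and 28 stayed within 1.5 times the reported value. With peaks at or above the median score only, the mesenchymal and EMT genes kept 1 peak of 5, 1 gene of 4, 1 promoter of 2 and 1 full site of 4, all at *Vim*, and their median distance fell to 348 bp. The epithelial genes kept 4 peaks of 5 and all 3 genes, and their median distance became 2730 bp. A peak was kept at 20 other epithelial and 5 other mesenchymal genes, where 21.9% of protein-coding genes had one. For promoter peaks this share was 5.57%. With gene bodies and 5000 bp upstream, both groups had 3 peaks, without the distal *Epcam* peak, the downstream *Muc1* peak and both *Cdh2* peaks. With the window from -1000 to 1000 bp, 2 of 3 epithelial and 2 of 7 mesenchymal and EMT members had a promoter peak (18.1% of protein-coding genes). So did 14 other epithelial and 3 other mesenchymal genes. With a window that began at -5000 bp and ended at the TSS, 10 other epithelial and 5 other mesenchymal genes had one (13.3%). With the highest peak of each gene, the median score of the epithelial genes was 19.5. With the nearest peak of each gene, median distances were 729 bp for the epithelial and 83204 bp for the mesenchymal and EMT genes. Without mismatches, 1 mesenchymal and EMT peak held a full site. By the nearest protein-coding TSS, each group had 7 peaks, and *Cdh2* gained its 2 additional peaks at -582967 and -1116173 bp. No paired analysis was possible because the merged list has no values per sample, and for the same reason no replicate could be left out. The precision of a score, and the depth at which *Zeb2*, *Snai1* and *Twist1* would have been detected, are unknown.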

Other observations

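The miR-200 family and miR-205 are microRNAs that repress ZEB1 and ZEB2 and keep cells epithelial. Of their 6 genes only *Mir205* had assigned peaks, and it had 2, at -2760 bp with a score of 5.98 and at 58088 bp with a score of 7.57. The median score of all peaks, 6.57, lay between these scores, and both were below those of *Cdh1* and of the downstream *Muc1* peak. No peak was assigned to *Mir200a*, *Mir200b*, *Mir429*, *Mir200c* or *Mir141*. The region nearest to a microRNA of a cluster is small, however, with a median of 2.73 kb over the 6 genes. In the decile of protein-coding genes with the smallest regions, up to 11.0 kb, 22% had a peak. The closest peaks lay near the cluster of *Mir200b*, *Mir200a* and *Mir429*, at -3756 bp from *Mir200b* (score 6.57, assigned to *Gm13648*) and at 3357 bp from *Mir429* (score 4.78, assigned to *Ttll10*). The cluster of *Mir200c* and *Mir141* had its closest peak at 17553 bp from *Mir141* (score 4.78, assigned to *Emg1*). The mature sequences are shown from RefSeq (GRCm38.p6), with the seed at bases 2 to 8 in capitals, to group the genes with and without an assigned peak. The seed AAUACUG is shared by miR-200b, miR-200c and miR-429, and AACACUG by miR-200a and miR-141, while that of miR-205 is distinct.
miR-205-5p: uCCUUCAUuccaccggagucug
miR-200b-3p: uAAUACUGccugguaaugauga
miR-200c-3p: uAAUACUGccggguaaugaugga
miR-429-3p: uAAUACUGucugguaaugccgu
miR-200a-3p: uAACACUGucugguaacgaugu
miR-141-3p: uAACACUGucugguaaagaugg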
